A study of Homo sapiens with 10 samples.

Results

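Laminin-332 and the integrins that bind it were followed through 9 genes, taken by symbol from a table of 18144 genes. They were LAMA3 and LAMB3, which encode chains of laminin-332, the integrin subunit genes ITGA2, ITGA3, ITGA6, ITGB1 and ITGB4, the tetraspanin gene CD151 and the transmembrane collagen gene COL17A1. The set was chosen because LAMB3 had the highest ratio of EE to untreated spheroids on day 7 among genes of epithelial-mesenchymal transition (EMT), so the values of EE against untreated spheroids on day 7 are a description and carry no test.

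RNA had been sequenced from spheroids of PC-3, an established cell line from a bone metastasis of prostate cancer, grown in 3D and labelled wild type. Untreated spheroids (CTRL) were sampled on days 0, 3 and 7, spheroids given a bolus of the topoisomerase I inhibitor topotecan on day 0 (CON, CONV-TOPO) on days 3 and 7, and spheroids given topotecan every day as a fraction of that bolus (EE, extended exposure or EE-TOPO) on days 3 and 7. By the paper's schedule the daily fractions reach the total of the bolus only over a week. By day 3 EE spheroids had thus received less topotecan than CON spheroids, and schedule and total dose cannot be told apart there. There was 1 library per treatment and day, 7 in all, with 15.0 M to 22.5 M reads per library (M, 1000000) as estimated from the steps of the values. The labels name 3 more libraries, of day 1, which were not analysed here. With no replicates, the interval given with a ratio of 2 libraries covers counting error only, and in RNA from whole spheroids a change in the share of cells and a change in RNA per cell cannot be told apart.

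Laminin-332 is a heterotrimer, with α3 and β3 among its chains, in the basement membrane of epithelia. Integrin α6β4 binds it and anchors the cell through the hemidesmosome, where plectin, BPAG1 and collagen XVII join the keratin filaments to the membrane, whereas integrin α3β1 binds the same laminin and signals through focal adhesions. In normal prostate, basal cells make laminin-332 and carry α6β4, and loss of both is a known feature of prostate carcinoma.

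Levels are deposited counts per 1000000 reads (CPM), divided here by a TMM (trimmed mean of M values) factor so that most genes match between libraries, and are called scaled CPM. Log2 ratios are those of scaled CPM + 1, and a gene was called in a comparison of 2 libraries when the ratio reached 2-fold among genes with a mean of at least 10 CPM. All 9 members passed that minimum in every comparison. The scaling moved the day-7 log2 ratios of all genes by 0.25 for CON and 0.22 for EE relative to library totals, after which the median gene stood at 0.00 in both.

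The cell line and its purity were checked against marker genes. KRT8, KRT18, VIM and CD44 were detected in every library, with sums of 2229 to 2658 scaled CPM in untreated and 2286 to 3731 in treated libraries, and CTNNA1, which PC-3 cells lack, did not exceed 0.40. TMPRSS2 was nevertheless present at 68.7 to 155, and KLK3 was not analysed here. Of the defining markers of other cells, DCN stayed at or below 0.254, VWF at or below 0.150, PTPRC at or below 0.448 and TP63 at or below 1.79. Other markers of the same lists were present, with KDR at 16.0 to 58.3 and PECAM1 at 18.6 to 31.3 among the endothelial ones, COL3A1 at 3.32 to 14.6 among the fibroblast ones and LYZ at 3.03 to 7.85 among the leukocyte ones. Summed leukocyte markers ran from 3.65 to 4.11 in untreated and from 3.92 to 7.92 in treated libraries, endothelial markers from 42.7 to 58.7 and from 42.7 to 76.9, fibroblast markers (mostly COL1A1) from 59.7 to 87.7 and from 60.5 to 81.1, and basal epithelial markers (mostly KRT15) from 154 to 172 and from 161 to 296. The part of these cells in the results was not tested.

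Promoter sequences are shown for LAMA3, LAMB3, ITGA2 and ITGA6, the members with an entry that were past 2-fold in a treated library, the laminin chains above and the integrin subunits below untreated spheroids. They are the 250 bases upstream of a RefSeq start (GRCh38.p14), cut where an annotated exon begins, and read 5′ to 3′ on the strand of the gene. Capitals mark the AP-1 motif TGANTCA, the GC box GGGCGG or its reverse complement CCGCCC, and the E-box CAGGTG or its reverse complement CACCTG. Of the 9 members, 6 had an entry, with 10 windows between them, and ITGA3, ITGB4 and CD151 had none. The LAMA3 window, chr18:23872770-23873019 (+ strand), lies in an intron of the long transcript and precedes the start of a short transcript of 38 exons.
LAMA3: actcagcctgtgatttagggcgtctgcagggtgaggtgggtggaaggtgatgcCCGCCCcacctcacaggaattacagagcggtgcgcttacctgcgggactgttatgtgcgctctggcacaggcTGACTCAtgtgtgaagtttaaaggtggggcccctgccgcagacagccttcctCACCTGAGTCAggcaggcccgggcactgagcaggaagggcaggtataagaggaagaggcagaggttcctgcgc
LAMB3 has an outer start, with the window chr1:209652426-209652675 (− strand), and an inner start within its own gene body, with the window chr1:209651395-209651624 (− strand).
LAMB3 outer: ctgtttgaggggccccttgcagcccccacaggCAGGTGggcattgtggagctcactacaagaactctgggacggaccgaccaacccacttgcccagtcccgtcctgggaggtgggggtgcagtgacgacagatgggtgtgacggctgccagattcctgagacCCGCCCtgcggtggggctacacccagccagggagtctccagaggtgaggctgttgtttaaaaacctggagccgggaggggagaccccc
LAMB3 inner: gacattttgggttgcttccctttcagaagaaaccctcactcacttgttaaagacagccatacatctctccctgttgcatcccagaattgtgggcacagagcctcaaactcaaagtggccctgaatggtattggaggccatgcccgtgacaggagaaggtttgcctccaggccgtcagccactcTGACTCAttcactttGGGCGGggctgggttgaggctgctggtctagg
The windows of the integrin subunits are chr5:52989102-52989339 (+ strand) for ITGA2 and chr2:172427086-172427335 (+ strand) for ITGA6.
ITGA2: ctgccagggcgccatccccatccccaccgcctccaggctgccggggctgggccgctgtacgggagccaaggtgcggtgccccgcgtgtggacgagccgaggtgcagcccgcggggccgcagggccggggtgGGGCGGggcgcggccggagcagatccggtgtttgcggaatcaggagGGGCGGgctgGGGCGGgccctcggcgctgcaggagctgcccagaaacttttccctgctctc
ITGA6: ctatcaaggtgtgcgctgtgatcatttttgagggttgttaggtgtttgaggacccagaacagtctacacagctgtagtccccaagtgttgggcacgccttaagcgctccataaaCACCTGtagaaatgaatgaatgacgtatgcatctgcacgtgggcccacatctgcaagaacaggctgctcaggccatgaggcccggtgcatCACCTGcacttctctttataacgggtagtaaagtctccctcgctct

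The AP-1 motif occurred at 125 and 69 bases before the LAMA3 start and at 67 bases before the inner LAMB3 start, and in neither printed integrin window. At LAMA3 the match at 69 bases overlaps the E-box match at 73 bases. Of all 35116 promoter windows of 250 bases, 6.57% held at least 1 AP-1 motif and 0.402% held 2 or more. The inner LAMB3 window had a GC box at 52 bases, and the outer one had a GC box at 88 bases and an E-box at 218 bases. The ITGA2 window held 4 GC boxes, of which the one at 9 bases falls in the part not printed, and the printed ITGA6 window held E-boxes at 136 and 46 bases. A second ITGA6 start, 250 bases downstream and with a window that overlaps an annotated exon, had GC boxes at 217, 106 and 55 bases and no E-box, and a further LAMB3 start just downstream of the outer one had a GC box at 184 bases. GC boxes stood in 42.6% of all windows and E-boxes in 17.5%. Such a match describes letters in a window and was not tied to the expression values.

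The table lists LAMB3 on chromosome 1 from 209614873 to 209652426 (hg38, − strand), a gene with 23 exons in its canonical transcript. LAMB3, the β3 chain that is found in no other laminin heterotrimer, stood at 254, 521 and 324 scaled CPM in untreated spheroids on days 0, 3 and 7. CON libraries had 530 and 551 on days 3 and 7, and EE libraries had 697 and 922. All 4 treated libraries were above the 3 untreated ones, although the lowest treated value (CON day 3) and the highest untreated value (CTRL day 3) lay close together, with a ratio of 1.02 (95% interval 0.988 to 1.05). The same was true of COL17A1 and of none of the other members, so that 2 of 9 members were above all untreated libraries in every treated library, against 4.32% of all genes. The set was chosen on LAMB3 in EE on day 7, which is part of this condition, so nothing is read from the count. With library totals in place of TMM scaling the 2 were CD151 and COL17A1, since LAMB3 in CON on day 7 then lay within the untreated range.

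**Figure D1:**
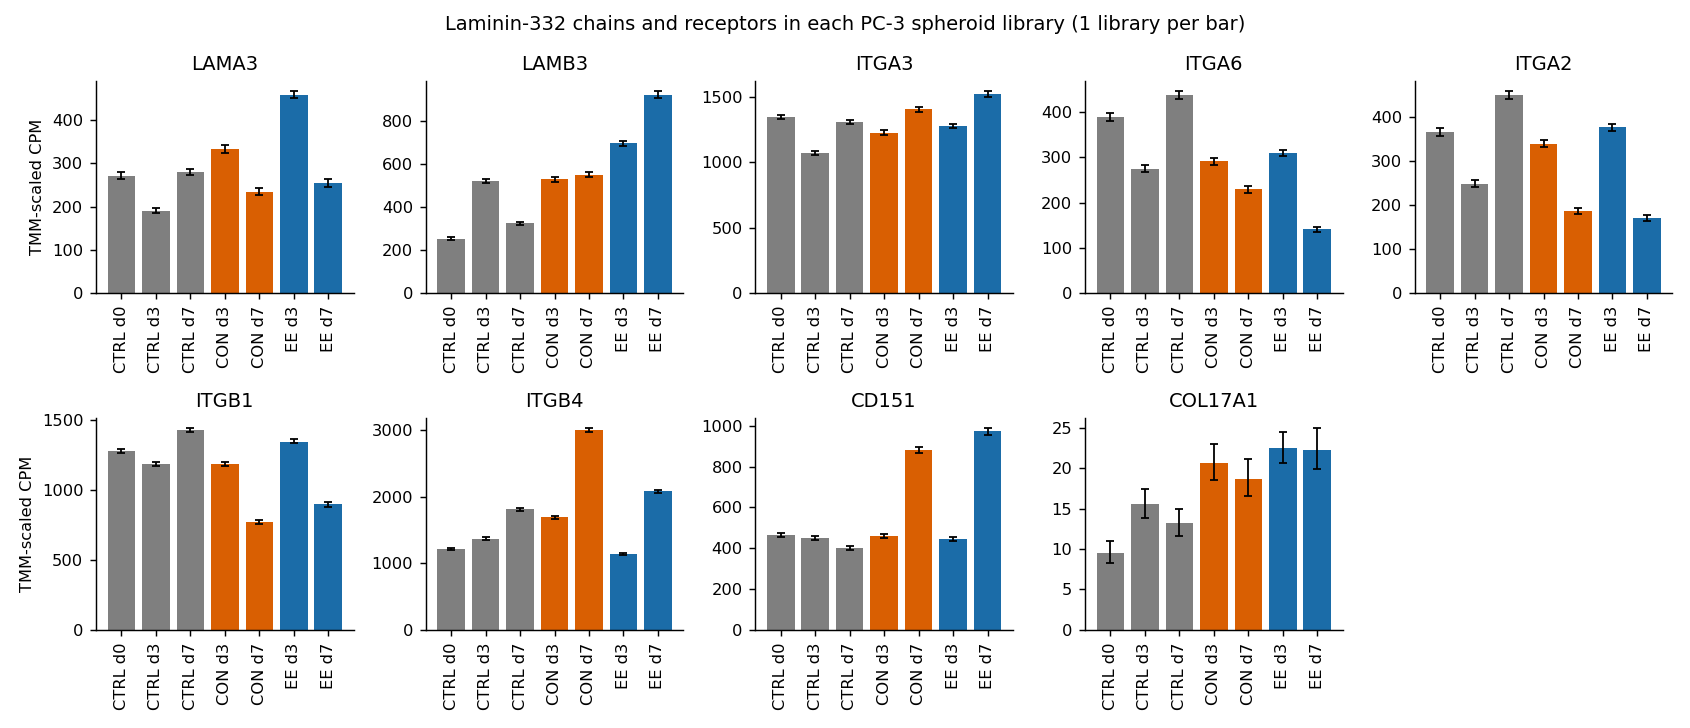
Scaled CPM (vertical axis, from 0) of the 9 members in each of 7 libraries, with untreated libraries in grey, CON in orange and EE in blue and exact 95% Poisson intervals that cover counting error only. LAMB3 reaches 922 in the EE library of day 7, whereas ITGA6 is lowest there at 141.

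In untreated spheroids LAMB3 itself moved with time. Its level on day 3 was 2.06-fold that of day 0 (log2 ratio 1.04, interval of the fold 1.99 to 2.13), which was the only call among 9 members in that comparison, where 1.37% of all genes were 2-fold higher and 0.252% lower. On day 7 it was 1.28-fold above day 0, and none of the members reached 2-fold between these days (0.869% of all genes in either direction). The choice of the untreated library therefore sets part of each ratio, and LAMB3 in EE on day 7 was 2.85-fold the untreated library of the same day (log2 1.51), with a log2 ratio of 1.86 against day 0 and 1.40 against the mean of the 3 untreated libraries.

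LAMB3 with EE was higher than with CON on both days. The fold was 1.31 on day 3 (1.28 to 1.35) and 1.67 on day 7 (1.63 to 1.72), but the EE library of day 7 also served to choose the set, so its ratio to CON (log2 0.74) is a description. On day 3 LAMB3 had the highest log2 ratio of EE to CON (0.39) of 21 genes that passed the minimum in a list of 24 EMT genes, followed by SERPINE2 at 0.34. That list was taken from the study's text and leaves out other EMT markers named there, such as EMP1 and S100A9. SNAI2, which encodes the EMT transcription factor Slug, had a higher ratio (1.06) but was below the minimum, at 12.3 scaled CPM in EE and 5.39 in CON. With CON against CTRL on day 7, which shares its CTRL library with the choice of the set, LAMB3 ranked 3 of 21 at 0.77, behind the calcium-binding S100A6 at 1.21 and the annexin ANXA2 at 0.85.

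LAMA3 (chromosome 18, 23689453 to 23955066, + strand), which encodes the α3 chain that carries the integrin-binding domains, followed another course. Untreated spheroids had 272, 191 and 281 scaled CPM on days 0, 3 and 7. CON had 334 and then 234, and EE had 458 and then 254. Both regimens were above every untreated library on day 3 and within the untreated range on day 7. On day 3 EE was 2.40-fold above CTRL (2.31 to 2.49), the only call among the members in that comparison, where 0.9% of all genes were 2-fold higher and 0.42% lower, and 34 of 10005 genes reached its log2 ratio of 1.26. CON on day 3 stood at 1.75-fold (log2 0.80), below the threshold, and no member was called there (0.59% of all genes). The day-3 call of LAMA3 depends on the untreated library of that day, in which LAMA3 was low, and on gene span: the log2 ratio was 0.75 against day 0, 0.91 against the mean of the untreated libraries and 0.96 with the trend of all genes on span removed.

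Both chains were higher with EE than with CON on both days, LAMA3 by 1.37-fold on day 3 (1.33 to 1.42) and by 1.08-fold on day 7 (1.03 to 1.14). Over all genes with a mean of at least 10 CPM, 24.8% were higher with EE than with CON on both days. LAMB3 in EE on day 7 served to choose the set, so nothing is read from both chains being among them.

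LAMA3 and LAMB3 did not move in proportion. Per kilobase of canonical transcript, LAMB3 stood at 2.48 times LAMA3 in untreated spheroids on day 0, at 7.24 on day 3 and at 3.06 on day 7. The ratio was 4.21 and 6.25 in CON and 4.03 and 9.63 in EE on days 3 and 7, so the EE library of day 7 held the most LAMB3 per LAMA3. LAMB3 in that library served to choose the set, so its highest ratio is a description. The next highest was the untreated library of day 3. These ratios use the long LAMA3 transcript of 10.7 kb, and with the short one of 5.62 kb the level of LAMA3 per kilobase would be 34.0 to 81.5 in place of 17.9 to 43.0.

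**Figure D2:**
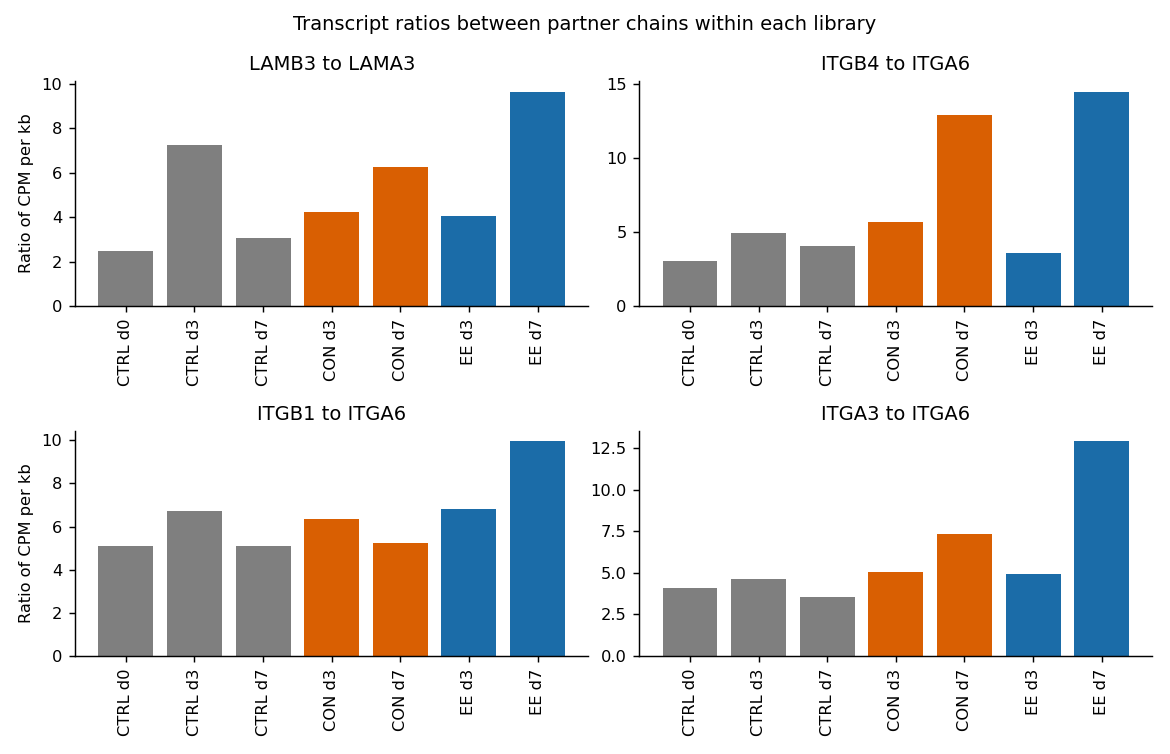
Ratio of scaled CPM per kilobase of canonical transcript (vertical axis, from 0) between partner chains within each library, with CTRL in grey, CON in orange and EE in blue. ITGB4 per ITGA6 is 3.06 to 5.72 in 5 libraries and 12.9 and 14.5 in the treated libraries of day 7.

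The α6 subunit gene ITGA6 (chromosome 2, 172427336 to 172506459, + strand) was lowest with EE on day 7. It pairs with β4 in hemidesmosomes and with β1 elsewhere. Untreated libraries had 390, 275 and 437 scaled CPM, CON had 291 and 229, and EE had 309 and 141. Both day-7 treated libraries were below every untreated one, and the day-3 libraries were within the untreated range. EE was at 0.322 times CTRL on day 7 (log2 −1.63) and CON at 0.525 times (log2 −0.93), and EE was at 0.614 times CON (0.580 to 0.650) on that day after a ratio of 1.06 on day 3. An antisense gene, ITGA6-AS1, overlaps ITGA6, and since the strand setting of the counting is not given in the sources used here, reads of both cannot be told apart.

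Its partner gene ITGB4 (chromosome 17, 75721459 to 75757819, + strand), whose product has the long cytoplasmic tail that binds plectin, differed in direction. Untreated libraries had 1207, 1369 and 1808, CON had 1688 and 3002, and EE had 1134 and 2076. Both treated libraries of day 7 were above all untreated ones, with CON the highest of all 7 and EE on day 3 the lowest. CON was 1.66-fold above CTRL on day 7 (1.64 to 1.68) and EE 1.15-fold (1.13 to 1.17), but with library totals the log2 ratio of EE turned from 0.20 to −0.02. EE was at 0.672 times CON on day 3 and at 0.692 times CON on day 7, which makes ITGB4 the member with the lowest ratio of EE to CON on day 3 and, after ITGA6, on day 7. GALK1 overlaps the listed span of ITGB4. On day 7 the transcript ratio of ITGB4 to ITGA6 per kilobase was 4.08 in CTRL, 12.9 in CON and 14.5 in EE, as the plot of partner ratios shows.

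The α3 subunit gene ITGA3 (chromosome 17, 50056110 to 50090482, + strand), the partner of β1 in the other laminin-332 receptor, varied least. It had 1348, 1070 and 1312 scaled CPM in CTRL, 1229 and 1408 in CON and 1279 and 1525 in EE libraries. Only the day-7 treated libraries exceeded the untreated range, by a small margin, and no ratio between a treated library and CTRL of the same day exceeded 1.20. With library totals its day-7 log2 ratios turned from 0.10 to −0.15 for CON and from 0.22 to −0.01 for EE. Against ITGA6, ITGA3 stood at 3.57 to 4.64 per kilobase in untreated libraries, and at 7.31 in CON and 12.9 in EE on day 7.

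ITGB1 (chromosome 10, 32900318 to 32958231, − strand), which pairs with α2, α3 and α6 among the members, was lower with both regimens on day 7. Its values were 1280, 1187 and 1429 in CTRL, 1188 and 774 in CON, and 1348 and 899 in EE. The day-7 treated libraries were below all others, at 0.542 times CTRL for CON (log2 −0.88) and 0.629 times for EE (log2 −0.67), short of 2-fold. ITGA2 (chromosome 5, 52989352 to 53094780, + strand), whose product binds collagen and laminin with β1, had 367, 249 and 450 in CTRL. CON had 340 and 187, and EE had 377 and 170, so the treated libraries were above CTRL on day 3 and below all untreated libraries on day 7. On day 7 ITGA2 was at 0.416 times CTRL with CON (log2 −1.26) and at 0.377 times with EE (log2 −1.40), while EE and CON differed little (0.907, 0.857 to 0.959). For CON the log2 ratio was −0.97 against CTRL of day 0 and −0.88 against the mean of the untreated libraries, and −0.89 with the span trend removed, all short of 2-fold. The table also lists GUSBP1 across ITGA2, over a span far wider than ITGA2.

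CD151 (chromosome 11, 832952 to 838836, + strand), the tetraspanin that associates with α3β1 and α6β4 and is needed for firm laminin adhesion, was the most uniform member until day 7. CTRL libraries had 467, 449 and 402 scaled CPM, and the day-3 libraries of CON and EE had 459 and 444. On day 7 CON had 882 and EE had 974, well apart from the other 5 libraries. These were 2.19-fold (2.13 to 2.26) and 2.42-fold (2.35 to 2.49) above CTRL of that day, and for CON the log2 ratio of 1.13 was 0.88 with library totals and 0.92 against CTRL of day 0. COL17A1 (chromosome 10, 104031286 to 104085881, − strand), collagen XVII of the hemidesmosome, was the scarcest member, with 9.55, 15.6 and 13.2 in CTRL, 20.7 and 18.7 in CON and 22.5 and 22.3 in EE. All 4 treated libraries exceeded all untreated ones, by 1.33- to 1.69-fold on the same day, and the ratio of EE to CON was 1.09 on day 3 (0.949 to 1.25) and 1.19 on day 7 (1.01 to 1.41).

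**Figure D3:**
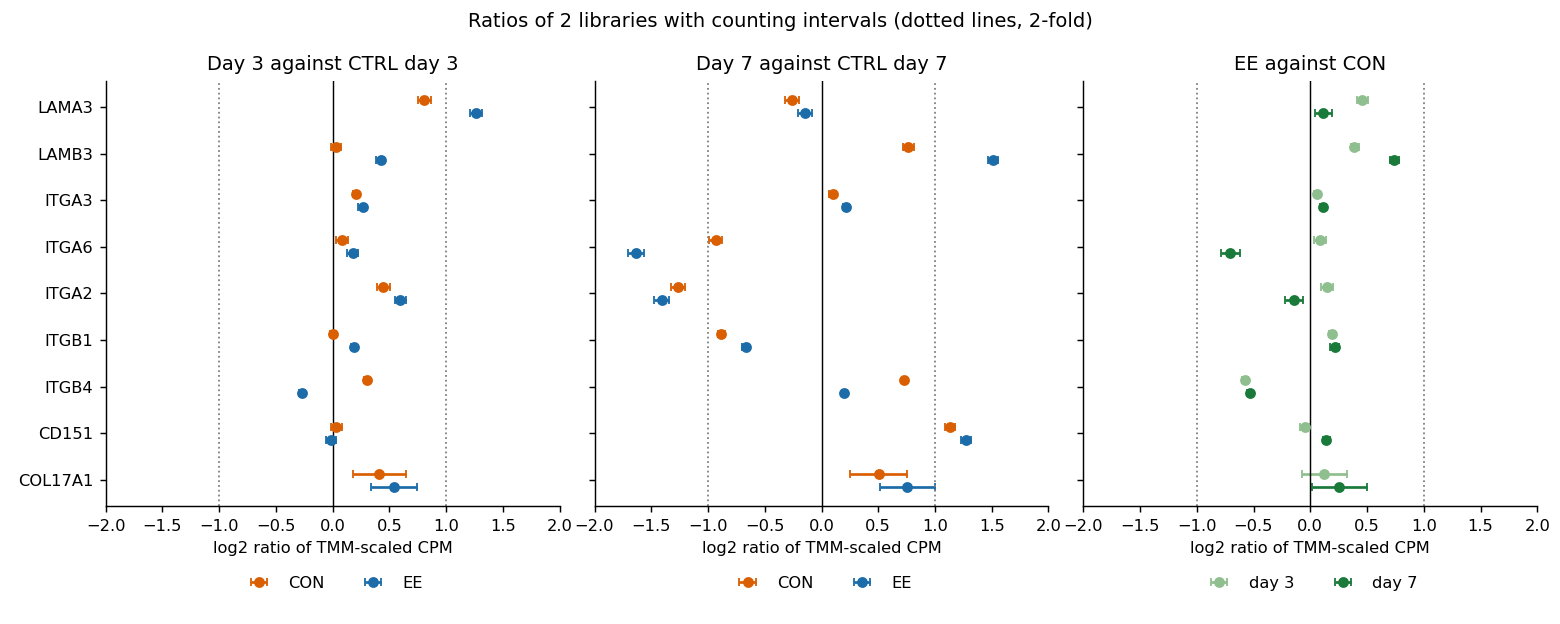
Log2 ratio of scaled CPM (horizontal axis, no pseudocount) for the 9 members, with exact 95% conditional binomial intervals that cover counting error only and dotted lines at 2-fold. On day 7 LAMB3 and CD151 lie at the right and ITGA2 and ITGA6 at the left, and in the EE against CON panel ITGB4 lies left of 0 and LAMB3 right of 0 on both days.

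In counts, CON on day 7 called 1 member higher (CD151) and 1 lower (ITGA2), against 8.15% and 7.21% of all genes. Which members were called depended on the setting, with 0 higher and 3 lower (ITGA2, ITGA6, ITGB1) by library totals, 2 higher (LAMB3, ITGB4) and 0 lower against the untreated library of day 0, and 2 higher (ITGB4, CD151) and 0 lower against the mean of the untreated libraries. EE on day 7 called 2 higher (LAMB3, CD151) and 2 lower (ITGA2, ITGA6), against 8.92% and 8.88%, and since the set was chosen on that comparison nothing is read from this count. Both day-7 treated libraries were above the untreated range for 5 of 9 members (LAMB3, ITGA3, ITGB4, CD151, COL17A1) and below it for 3 (ITGA2, ITGA6, ITGB1), while 32.7% and 37.0% of all genes did the same. LAMB3 is among the 5 and was chosen on its EE ratio of day 7, so nothing is read from the count above the range. With library totals the count above was 2 (CD151, COL17A1) and the count below was again 3. On day 3 both were above it for 3 members (LAMA3, LAMB3 and COL17A1, with 14.2% of all genes). No member differed by 2-fold between EE and CON on day 3 (0.26% of all genes) or day 7 (0.401%). The regimens share their CTRL libraries, so their ratios to CTRL are not independent of each other.

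Per kilobase of canonical transcript the members kept to the same broad levels in all untreated libraries. ITGB1 led with 318 to 383 scaled CPM per kilobase, CD151, ITGA3 and ITGB4 followed between 205 and 307, LAMB3, ITGA6 and ITGA2 lay between 31.8 and 130, LAMA3 had 17.9 to 26.4 and COL17A1 had 1.70 to 2.78. CD151, ITGA3 and ITGB4 changed places among untreated libraries, as did LAMB3 and ITGA6, and so do not differ beyond the spread of these 3. On day 7 with either regimen CD151 led (571 in CON, 630 in EE), ITGB4 was next (509 and 352), as it already was in CTRL of day 7 behind ITGB1, and ITGB1 came 4th (207 and 241). LAMB3 with EE on day 7, at 230, was close to ITGB1.

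Across days 3 and 7 the treatments were compared with limma over 6 libraries and 14684 genes, in a model of treatment plus day on log2(scaled CPM + 1). Its error is how far an effect differed from day 3 to day 7, which is not a spread between replicates. For CON against CTRL, 0 of 9 members and 0.0% of all genes passed a Benjamini-Hochberg adjusted p of 0.05, and 254 genes (1.73%) had an unadjusted p under 0.05, none of them a member. ITGB4 had a log2 fold change of 0.52 ± 0.30 (SE, limma adjusted p = 0.913), and CD151 of 0.58 ± 0.37 (limma adjusted p = 0.913). For EE against CON, 0 of 9 members and again 0.0% of all genes passed, with 129 genes (0.879%) at an unadjusted p under 0.05 and no member among them. LAMB3 had 0.57 ± 0.33 (SE, limma unadjusted p = 0.133, adjusted p = 1) and ITGB4 −0.55 ± 0.30 (limma unadjusted p = 0.116, adjusted p = 1). The EE library of day 7 also served to choose the set, so the values of LAMB3 for EE against CON are a description and its p is no independent test.

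The other laminin chains differed among themselves on day 7. Of 11 laminin chain genes, 10 were listed and 7 had enough signal on day 7, where 2 were 2-fold lower with CON and 0 higher, and 2 were lower and 1 (LAMB3) higher with EE. LAMB3 was chosen on that EE comparison. Of all genes, 7.21% were lower and 8.15% higher with CON, and 8.88% and 8.92% with EE. LAMA5 and LAMB1, chains of laminin-511, had day-7 log2 ratios of −1.37 and −1.08 with CON and of −1.67 and −1.64 with EE. LAMC1, their partner, had −0.72 and −0.92, while LAMB2 had −0.05 and −0.16 and LAMA4 had −0.18 and 0.02. The median of the 7, LAMA3 and LAMB3 included, was −0.26 with CON and −0.16 with EE, beside 0.00 for all genes tested. On day 3 with EE all 7 were above CTRL, with a median of 0.29 beside −0.06 for all genes.

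**Figure D4:**
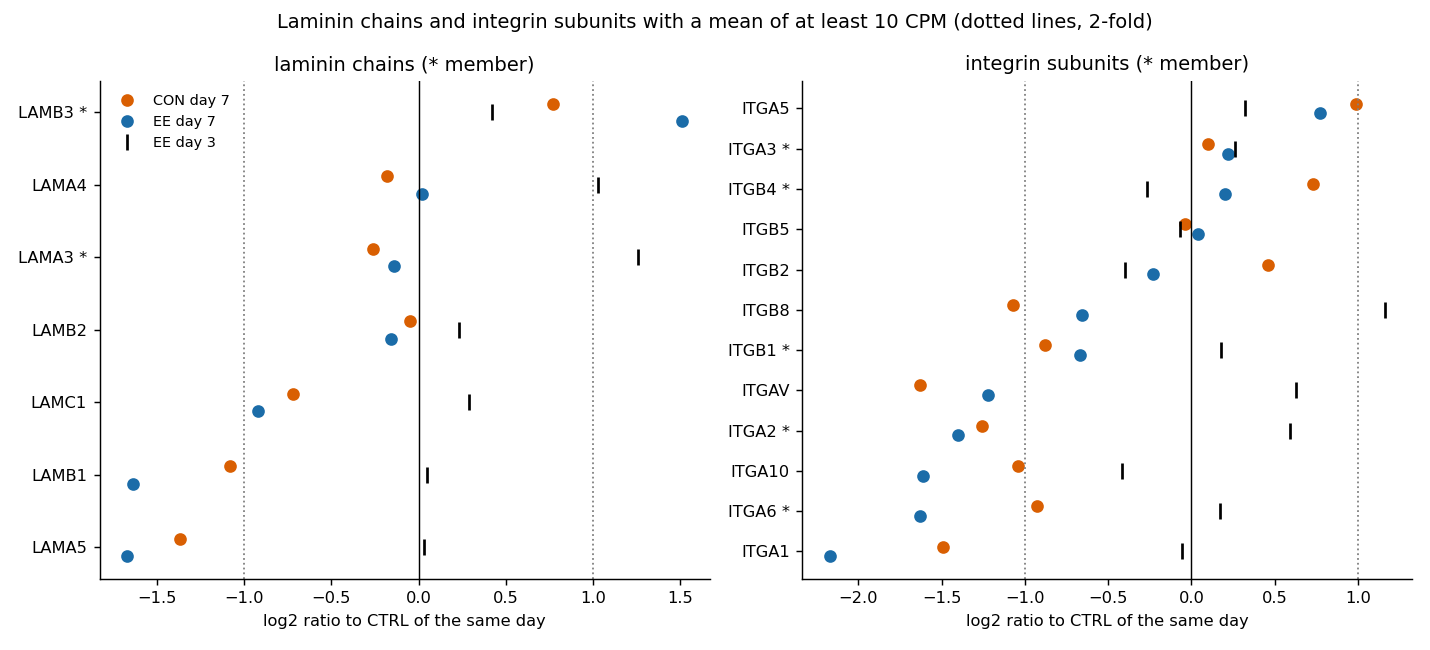
Log2 ratio to the untreated library of the same day (horizontal axis) for laminin chains (left) and integrin subunits (right) with a mean of at least 10 CPM, for CON day 7 (orange), EE day 7 (blue) and EE day 3 (black tick), 1 library each, with dotted lines at 2-fold. LAMB3 stands alone at the right of the laminin panel at 1.51, and ITGA1 at the left of the integrin panel at −2.17.

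Of 26 integrin subunit genes, 22 were listed and 12 were tested on day 7, and with each regimen 5 were 2-fold lower and 0 higher. Of all genes, 7.21% were lower and 8.15% higher with CON, and 8.88% and 8.92% with EE. The subunits lower with both were ITGA1 (log2 −1.49 with CON, −2.17 with EE) and ITGA10 (−1.04, −1.61), which bind collagens, ITGAV (−1.63, −1.22), which binds vitronectin and fibronectin, and the member ITGA2. The fibronectin receptor subunit ITGA5 had the highest EE ratio, 0.77, with 0.99 for CON. The median of the 12 was −0.91 with CON and −0.66 with EE, and 0.19 and 0.18 on day 3.

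Of 6 hemidesmosome genes, the plakin genes PLEC and DST (which encodes BPAG1) were on the low side on day 7, with −0.54 and −1.44 for CON and −0.69 and −1.45 for EE, whereas CD151 and COL17A1 were on the high side. All 6 tetraspanin genes of the list were above CTRL on day 7 with both regimens, with medians of 0.90 and 1.12 and 2 and 4 of them past 2-fold, against 8.15% and 8.92% of all genes 2-fold higher. CD81 had 1.44 and 1.45, and CD63, the lowest with EE, had 0.92 and 0.89. Their genes span 4.35 kb (CD63), 5.88 kb (CD151), 21.2 kb (CD81), 24.3 kb (TSPAN4), 38.3 kb (CD9) and 54.7 kb (CD82). CD9 and CD82 lie at spans where the median gene was below 0 on day 7, with log2 ratios of 1.11 and 1.00 with EE. Canonical transcripts of the 6 genes ran from 1.02 kb (CD63) to 2.21 kb (CD82). Over all genes the day-7 ratio fell with transcript length, with rank correlations of −0.68 for CON and −0.63 for EE. The part of gene size in the tetraspanin ratios was not tested.

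Other laminin-binding and basement membrane genes were also read. For the counts in this paragraph, the shares of all genes on day 7 were 8.15% higher and 7.21% lower with CON, and 8.92% and 8.88% with EE. Of 6 other laminin receptors 0 reached 2-fold on day 7, with BCAM, the Lutheran glycoprotein that binds laminin α5, the highest with EE (0.97, and 0.62 with CON) and the syndecan SDC1 the lowest (−0.52, and 0.13 with CON). Of 5 basement membrane genes tested, the perlecan gene HSPG2 was 2-fold lower with both regimens (−1.74 and −2.60), from 2435 scaled CPM in CTRL to 727 in CON and 399 in EE, while the collagen IV gene COL4A2 stayed at 0.05 and 0.01. Of 4 proteases of laminin-332 processing that were tested, PLAU (urokinase) reached 2-fold with EE on day 7 (1.13, and 0.20 with CON) after −1.05 on day 3. PLAU moved as much among untreated libraries, at 714, 2368 and 793 scaled CPM on days 0, 3 and 7. BMP1, a procollagen C-proteinase that also cleaves laminin-332, had 0.41 and 0.40 on day 7. Of the integrin adaptor genes, 19 tested with CON and 20 with EE, 0 reached 2-fold on day 7, with extremes of 0.57 for ZYX and −0.85 for FERMT2 with EE. Of 21 EMT genes tested on day 7, 1 was 2-fold higher and 2 were lower with CON and 3 were higher and 1 lower with EE. LAMB3 is among the 3 and was chosen on that comparison in EMT genes, so nothing is read from the count. S100A6 (1.21, 1.09) was higher and AHNAK2 (−1.21, −1.56) lower with both.

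Day-7 ratios moved with gene size across all genes, and the members were spread over that range. The rank correlation of the log2 ratio with gene span was −0.55 with CON over 9938 genes and −0.54 with EE over 9958 genes, and with canonical transcript length −0.68 and −0.63. On day 3 the sign was the opposite, with 0.29 for CON and 0.46 for EE against span. Of 10 bins of genes by span, the one with the shortest genes (median 3.29 kb) had a median of 0.79 with EE on day 7 and the one with the longest (median 224 kb) had −0.58. CD151, with 5.88 kb, was thus among short genes that were higher, and LAMA3 (266 kb), ITGA2 (105 kb) and ITGA6 (79.1 kb) among long genes that were lower.

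**Figure D5:**
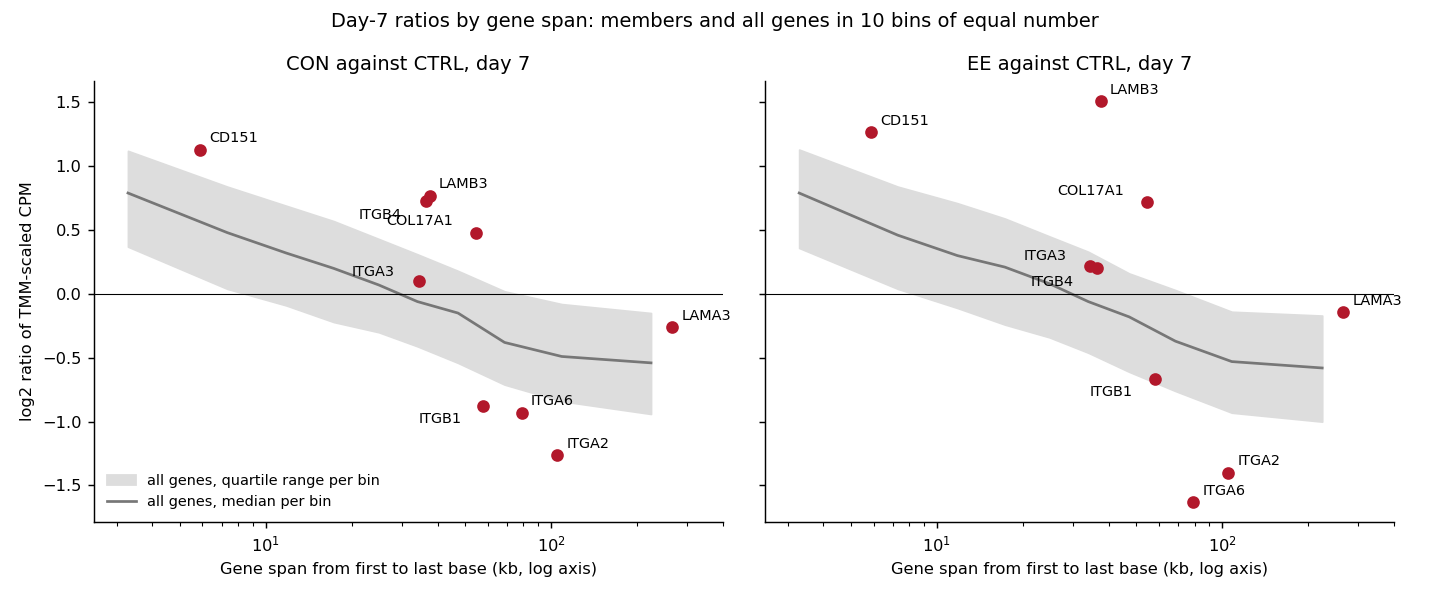
Log2 ratio on day 7 (vertical axis) by gene span in kb (horizontal log axis) for the members (red) and all genes in 10 bins of equal number, with the line at the bin median and the grey band from the lower to the upper quartile. With both CON and EE, LAMB3 (0.77 and 1.51), CD151 (1.13 and 1.27) and COL17A1 (0.48 and 0.72) lie above the band. ITGA2 (−1.26 and −1.40) and ITGA6 (−0.93 and −1.63) lie below it with both. ITGB4 (0.73) lies above it and ITGB1 (−0.88) below it with CON, and LAMA3 lies past its long end.

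With the linear trend on log10 span removed, LAMB3 in EE on day 7 stood at 1.59, ITGA6 at −1.32 and ITGA2 at −1.01, whereas CD151 stood at 0.80 (0.68 with CON) and LAMA3 at 0.53 in place of −0.14. With the trend on transcript length removed as well, LAMB3 was at 1.65, ITGA6 at −1.19, COL17A1 at 1.08, ITGA2 at −0.77 and CD151 at 0.67. The part of gene size in the other differences was not tested. The comparison of EE with CON on day 7 was nearly free of this relation, with a rank correlation of −0.05 with span over 9714 genes, and removal of the span trend left the ratios of LAMB3 (0.74) and ITGB4 (−0.53) the same and moved ITGA6 from −0.70 to −0.69. On day 3 it was not, with rank correlations of 0.35 with span and 0.41 with transcript length. The day-3 log2 ratio of LAMA3 for EE against CON went from 0.45 to 0.31 with the span trend removed. It was 0.26 with transcript length removed as well. LAMB3 went from 0.39 to 0.37 and 0.36, and ITGB4 from −0.57 to −0.59 and −0.64.

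The genes whose pattern over the 7 libraries was most like that of LAMB3, among 9984 with a mean of at least 10 CPM, were C1orf116 (Pearson r = 0.988 on log2 scaled CPM), TMEM254 (0.985), STK40 (0.980), ADM2 (0.975) and ZBTB9 (0.974). C1orf116 had 57.4, 110 and 69.8 scaled CPM in CTRL, 109 and 100 in CON and 139 and 155 in EE. It shared the LAMB3 peak of CTRL day 3 and the highest value with EE on day 7. Of the members COL17A1 was nearest (r = 0.93, rank 40) and ITGA6 farthest (−0.84), with CD151 at 0.58, ITGB4 at 0.27 and LAMA3 at 0.14. These coefficients describe 7 libraries that share day and treatment.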

How the data were processed

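The members and gene lists were chosen with earlier results of these data known. RNA libraries (TruSeq v2) from PC-3 spheroids were mapped by the authors to hg38 with STAR and normalized to CPM, and the submitters' processing notes name Partek. The authors deposited CPM for 18144 genes with an offset of 0.0001 CPM added to each value, which was subtracted. The study's text describes exposure of several weeks, whereas the labels give days 0, 1, 3 and 7, which were used here. Listed gene ends are 1 base past the RefSeq end for 72.2% of 17459 genes and are printed as listed.

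Depth was read from the steps of low values (under 2 CPM). Of these, 87.3% to 88.6% per library were whole multiples of 1 read within 0.02 of a read, so no count test was run, and the fit fixed for counts was replaced by limma 3.58.1 (R 4.3.3) on log2(scaled CPM + 1) with treatment and day, trended empirical Bayes and a Benjamini-Hochberg threshold of 0.05 (2 residual degrees of freedom), among genes with at least 0.565 CPM (10 reads at the median depth) in 2 libraries. TMM factors (0.883 to 1.09) trimmed 30% of ratios and 5% of levels at each end. Ratio intervals are exact 95% conditional binomial intervals of estimated reads. Ratios and fits were tested on simulated data. Gene spans are the listed ones, and canonical transcripts are those of GENCODE 44 (16973 genes).

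Some genes of the lists are not reported here. Besides the members and the identity genes, the text names from each list the genes at 2-fold in 1 direction with both regimens on day 7 and those with the highest and lowest EE ratio, and the 5 genes most like LAMB3. LAMC1, LAMB2, LAMA4, PLEC, CD9, CD82, TSPAN4, SERPINE2, SNAI2, ANXA2, COL3A1 and LYZ fall outside this rule and were named after their values were seen. DCN, VWF, PTPRC and TP63, named as markers of other cells, fall outside it too. Alternatives were library totals, median-of-ratios factors, a pseudocount of 0.1 CPM, no minimum, 1.5-fold, removal of the span trend, another untreated library, other limma designs and, chosen after seeing the data, the mean of the untreated libraries and removal of the transcript length trend.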

Additional observations from a re-analysis of the deposited data

Results flagged for a closer look

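For 5 members with EE and 3 with CON the ratio to CTRL turned between days 3 and 7, with counting intervals that exclude 1 on both days. The difference between days was not tested, because each day has 1 library per treatment. With CON, the log2 ratio moved from day 3 to day 7 by −1.06 for LAMA3 (0.80 to −0.26), by −1.70 for ITGA2 (0.44 to −1.26) and by −1.01 for ITGA6 (0.08 to −0.93). With EE it moved by −1.40 for LAMA3 (1.26 to −0.14), by −1.99 for ITGA2 (0.59 to −1.40), by −1.80 for ITGA6 (0.17 to −1.63), by −0.85 for ITGB1 (0.18 to −0.67) and, in the other direction, by 0.47 for ITGB4 (−0.27 to 0.20, or −0.02 on day 7 with library totals). CTRL values of LAMA3, ITGA2 and ITGA6 were themselves lower on day 3 than on days 0 and 7, and the rank correlation of all genes' ratios with gene span also changed sign between days, from 0.46 to −0.54 with EE. Of the 8 turns, 6 were present with the span trend removed, where LAMA3 was above 0 on both days (0.67 and 0.37 with CON, 0.96 and 0.53 with EE), and 4 with transcript length removed as well. Against the untreated library of day 0, 5 were present, while ITGA2 with CON (−0.11 and −0.97) and ITGA6 with CON (−0.42 and −0.76) and EE (−0.33 and −1.46) were below 0 on both days. Against the mean of the untreated libraries 4 were present, and with library totals 7, all but ITGB4.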

How the results depend on the processing

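No paired analysis was possible because the labels carry no replicate numbers and each treatment and day has 1 library, and the limma model matched libraries by day only. Counts of members past 2-fold changed by more than 1.5 times as follows. At 1.5-fold there were 1 with CON on day 3 (4.23% of all genes), 6 with CON on day 7 (41.5%), 2 with EE on day 3 (9.38%), 2 between EE and CON on day 7 (LAMB3 higher, ITGA6 lower; 3.35%) and 2 between CTRL days 3 and 0 (6.75%). With the span trend removed, 0 were past 2-fold with CON on day 7 (ITGA2 at −0.89, CD151 at 0.68) and 0 with EE on day 3 (LAMA3 at 0.96), and with transcript length removed as well 1 (ITGB4) and 0. Against the untreated library of day 0 there were 2 with CON and 2 with EE on day 3 (LAMB3, COL17A1), and against the mean of the untreated libraries 0 with EE on day 3. Limma was also restricted to the 4 libraries compared, which leaves 1 residual degree of freedom. There 2 members were called between EE and CON (LAMB3 higher, ITGB4 lower), among 80 of 14684 genes called. The EE library of day 7 is in that fit and served to choose the set, so nothing is read from the LAMB3 call. Adjusted p over all limma alternatives ran from 0.0246 to 1.00 for LAMB3 and from 0.0375 to 1.00 for ITGB4. The causes were not tested. Of 78 alternative values of these counts the other 65 stayed within 1.5 times, which includes counts of 0 that stayed at 0. No called ratio changed sign. Equal counts did not always hold the same members. Of 64 alternative values of the 2-fold counts, 45 held the same members, which includes comparisons where no member was called in either setting. Where members were called at first, the same ones were called in 3 of 9 alternatives with CON on day 7. With EE it was 4 of 9 on day 3 and 5 of 9 on day 7, and between CTRL days 3 and 0 it was 6 of 7. With library totals the day-7 ratios of ITGA3 (both regimens) and ITGB4 (EE), which were not called, turned to the other side of 0. With 1 library per condition, depth limits only COL17A1 (1.19 to 1.69 for CON on day 7), while variation between cultures is not measured.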
